A study of Mus musculus with 21 samples.

Results

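The SMYD lysine methyltransferases are a family of 5 genes in the mouse, Smyd1, Smyd2, Smyd3, Smyd4 and Smyd5, and all 5 were found by gene symbol among the 40853 genes counted in the gastrocnemius. The family was chosen by the normalized counts of Smyd2 in the 3 groups, which differed, so the differences of Smyd2 between groups are given as a description. Where Smyd2 passed or missed a threshold in a model of all genes, that is stated as part of how it was chosen and supports nothing. RNA came from the whole medial belly of the gastrocnemius of 21 female C57BL/6NJ mice, 10 weeks old at the start, with 1 library per mouse and 7 mice in each of 3 groups. Mice of the Active group ran on a treadmill for 6 weeks, in 5 sessions each week. A session was a slow warm up and then a run at about 70% of maximal speed, which was lengthened over the first weeks until the whole session took up to 40 min. Activity Reduction mice trained in that way for 4 weeks and were then left inactive for 2 weeks. Inactive mice went without training for all 6 weeks. The labels give no engineered allele and no drug in any group. Mice of all 3 groups ran a maximal test 48 to 72 h before the muscle was taken, so the Inactive group is not a group that never ran. The whole belly was homogenized, so fewer cells of a type and less RNA per cell cannot be told apart.

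SMYD enzymes carry a SET domain, the fold that moves a methyl group from S-adenosylmethionine onto lysine, and this domain is interrupted by a MYND zinc finger that binds other proteins. Smyd1 is largely restricted to heart and skeletal muscle, where it is needed for the assembly of sarcomeres. Smyd2 is mostly cytoplasmic, methylates the chaperone Hsp90 and is found with Hsp90 and the giant protein titin at the sarcomere. Smyd3 methylates histones and the kinase encoded by Map3k2. Smyd4 carries tetratricopeptide repeats and is the least studied member, and Smyd5 methylates histones.

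On GRCm39 with the GENCODE annotation, Smyd1 (ENSMUSG00000055027) lies on the minus strand of chromosome 6 from 71190923 to 71299217. Smyd2 (ENSMUSG00000026603) lies on the minus strand of chromosome 1 from 189612683 to 189655081. Smyd3 (ENSMUSG00000055067), the longest gene of the family, is on the same strand of the same chromosome from 178779131 to 179345610. Smyd4 (ENSMUSG00000018809) lies on the plus strand of chromosome 11 from 75239205 to 75305358, and Smyd5 (ENSMUSG00000033706) on the plus strand of chromosome 6 from 85408946 to 85425833. All 5 encode proteins, and their canonical transcripts have 9, 12, 12, 11 and 13 exons in the order Smyd1 to Smyd5. Reads were counted with a strand setting that is not given in the sources used here, so genes on the opposite strand matter where exons overlap. Of the exon length of Smyd2, 31.1% is shared with Gm37422 and 7.00% with Gm70902, both noncoding. Neither is among the counted genes, so no level can be given for either. Exons of Smyd5 overlap the protein-coding gene Pradc1 over 21.3% of their length, exons of Smyd4 overlap Rpa1 over 2.60% and Serpinf1 over 1.48%, and Smyd1 and Smyd3 overlap no exon on either strand. Reads in these stretches cannot be told apart without strand. Pradc1 was counted at 477 ± 38.3, 451 ± 30.7 and 454 ± 45.4 (normalized count, mean ± SD, n = 7) in the Inactive, Active and Activity Reduction groups, which overlapped.

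The starts of Smyd1 and Smyd2 are shown because these genes hold nearly all of the reads of the family and Smyd2 is the member for which the family was chosen. Each sequence is the 250 bases before the gene start in RefSeq on GRCm38.p6, read 5′ to 3′ on the strand of the gene, at chr6:71262282-71262531 for Smyd1 and chr1:189922292-189922541 for Smyd2. Capitals mark matches, on either strand, to the GC box letters (GGGCGG), to the letters CCAAT and to those of the TATA box (TATAAA). The positions of these sequences are from another build and another annotation than the gene spans given above. Whether the sequences adjoin those spans was not tested. No promoter sequence was used for Smyd3.
Smyd1: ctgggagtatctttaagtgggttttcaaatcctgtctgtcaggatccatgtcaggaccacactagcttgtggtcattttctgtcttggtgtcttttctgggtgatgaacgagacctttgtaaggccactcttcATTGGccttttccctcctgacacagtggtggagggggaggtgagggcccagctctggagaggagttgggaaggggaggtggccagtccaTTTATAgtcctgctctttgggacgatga
Smyd2: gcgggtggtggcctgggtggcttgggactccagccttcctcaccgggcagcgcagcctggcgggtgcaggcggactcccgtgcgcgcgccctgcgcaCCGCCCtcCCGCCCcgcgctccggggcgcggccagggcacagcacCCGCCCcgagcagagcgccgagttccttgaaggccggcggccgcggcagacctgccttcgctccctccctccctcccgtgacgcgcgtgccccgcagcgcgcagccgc
The Smyd2 sequence was 78.8% G and C, higher than 98.3% of the 32851 RefSeq mouse promoters of this length, and held 34 CpG dinucleotides where the median promoter held 6. It held 3 matches to GGGCGG, the letters of the GC box, each read as CCGCCC, and these letters were present in 32.7% of all promoters. The Smyd1 sequence was 51.6% G and C, near the median of 52.4%, and held 2 CpG dinucleotides and no GGGCGG. It held 1 match to CCAAT on the opposite strand, which 33.8% of promoters hold, and 1 match to TATAAA on the opposite strand from 28 to 23 bases before the start, which 12.4% of promoters hold. The promoters of Smyd4 and Smyd5 were between these in G and C, at 69.2% and 60.4%, and in matches to GGGCGG, with 2 in each. They held 2 and 1 matches to CCAAT. Of the letters of the E box, CANNTG, which 66.2% of promoters hold, Smyd4 had 2 matches and Smyd1, Smyd2 and Smyd5 had 0. None of the 4 promoters matched the CArG box (1.47% of promoters) or the MEF2 site (2.92%). A match describes the letters only, and no binding was measured.

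The libraries held 38482455 to 59785132 counted reads, with fewer in every Active library than in every Inactive library. Each of 12 markers of skeletal muscle fibres was counted in every library. Mylpf, which encodes a light chain of fast myosin, was at only 1.77 to 3.59 CPM (counts scaled to the total of the library). Myh4, a myosin heavy chain, was at 68045 to 96075 CPM in the same libraries. Whether the low value of Mylpf comes from the counting or from the muscle was not tested. Transcripts of 24 hepatocyte markers divided the libraries into 8 with more of them (1 Inactive, 5 Active and 2 Activity Reduction mice) and 13 with fewer (6, 2 and 5 mice). In the order of the mouse numbers in the labels, the 8 libraries with more all came before the 13 with fewer. The division therefore cannot be told apart from the order of the samples. The level of Alb, which encodes albumin, ran from 71.1 to 1155 CPM over the 21 libraries, and 23 of the 24 markers were counted in every library, with Mup20 at 0 in at least 1. Medians of the summed hepatocyte markers were 310.8 CPM in Inactive, 1903 CPM in Active and 373 CPM in Activity Reduction mice. In 1 edgeR model with the groups, 739 of 16129 genes differed between these 2 sets of libraries at an adjusted p-value under 0.05, and no SMYD gene was among them. The largest difference among the 5 was that of Smyd4, at -0.13 on the log2 scale in the libraries with more liver transcripts (adjusted p = 0.543, quasi-likelihood test of edgeR, Benjamini-Hochberg adjusted), and that of Smyd2 was -0.06 (adjusted p = 0.823, same test). Results are therefore given for all libraries and, for Smyd2, also within this division.

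The members were expressed at very unequal levels. Levels of different genes are compared here as RPKM (CPM divided by length in kb, computed with the length of the canonical transcript), and the median over 21 mice was 198 for Smyd1, 84.8 for Smyd2, 1.81 for Smyd5, 1.46 for Smyd4 and 1.10 for Smyd3. The ranges of Smyd1 (179 to 218) and Smyd2 (72.1 to 117) did not overlap each other or those of the other members. Smyd5 (1.62 to 2.16) and Smyd4 (1.25 to 1.82) overlapped, and every Smyd3 value (0.891 to 1.25) was below every Smyd4 value, with almost no gap. With the length of all annotated exons in place of that of the canonical transcript, Smyd3 and Smyd4 overlapped, with medians of 0.577 and 0.535 RPKM, and the order of Smyd1, Smyd2 and Smyd5 was the same.

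**Figure D1:**
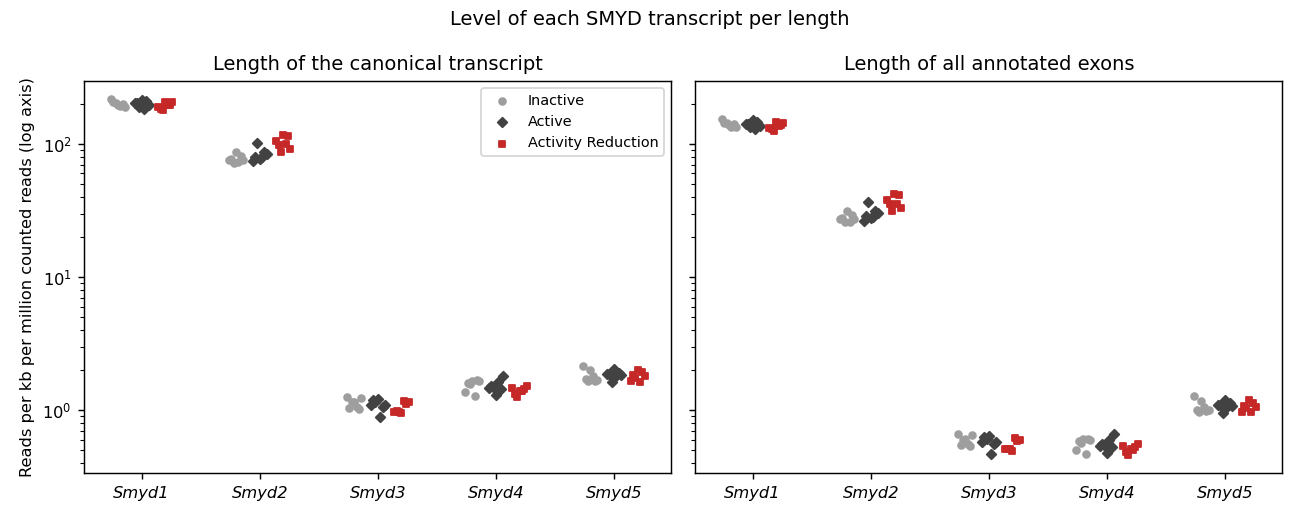
Level of each SMYD transcript in each mouse in RPKM on a log axis, with the length of the canonical transcript on the left and that of all annotated exons on the right. Grey circles are Inactive, dark diamonds Active and red squares Activity Reduction mice (7 each), and Smyd1 and Smyd2 lie far above the other 3 members with either length.

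The muscle-restricted member, Smyd1, did not differ between groups beyond its spread. Its normalized counts (raw counts divided by DESeq2's size factors) had a lowest value of 30839, a median of 33141.5 and a highest value of 34486 in the Inactive group. They were 29059.6, 32473 and 34412 in the Active group and 29932, 32634 and 35416 in the Activity Reduction group. The 3 groups covered nearly the same range, and the means were 32554 ± 1293, 32279.8 ± 1984 and 32283 ± 2063 (SD, n = 7 each). The fold change of Smyd1 between the Activity Reduction and Inactive groups was 0.995, with a 95% interval of 0.934 to 1.06 (adjusted p = 0.993, quasi-likelihood test of edgeR, Benjamini-Hochberg adjusted over all genes). Against the Active group it was 0.999 (0.938 to 1.06), and between the Active and Inactive groups it was 0.996 (0.936 to 1.06). Changes of Smyd1 within these intervals were compatible with the values of 7 mice a group.

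Smyd2, the Hsp90 methyltransferase, was highest after training had stopped. In the Inactive group its normalized counts had a lowest value of 7775, a median of 8080.4 and a highest value of 9289.7. In the Active group these were 7868, 8957 and 10861, and in the Activity Reduction group they were 9719, 10972 and 13240.5. All 7 mice of the Activity Reduction group were above all 7 Inactive mice, and 5 of the 7 were above every Active mouse. The Activity Reduction and Inactive groups did not overlap for 0.118% of the 16129 genes tested, and for 0.0558% with the Activity Reduction group higher, and nothing is read from this share, since the family was chosen by this contrast. The overlap with the Active group came from 1 Active mouse, replicate 3, at 10861, since the other 6 Active mice were below every mouse of the Activity Reduction group. The Active and Inactive groups overlapped, with 2 Active mice above every Inactive mouse and 1 Inactive mouse below every Active mouse. The group means were 8312 ± 584 (Inactive), 8949.5 ± 1036 (Active) and 11266 ± 1363 (Activity Reduction; SD, n = 7 each). On the log2 scale the fitted difference of Smyd2 was 0.44 (SE 0.0735) between the Activity Reduction and Inactive groups, 0.33 (SE 0.0735) between the Activity Reduction and Active groups and 0.11 (SE 0.0735) between the Active and Inactive groups, which is 1.36-fold, 1.26-fold and 1.08-fold. These 3 comparisons share their groups, and Smyd2 was chosen with them known.

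**Figure D2:**
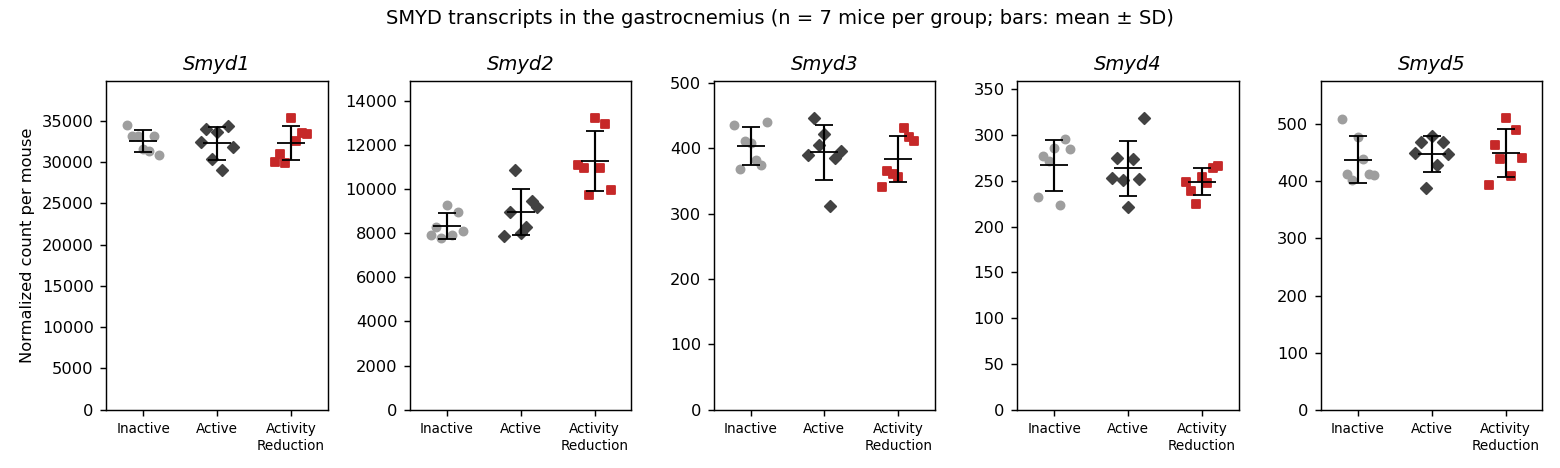
Normalized counts of each SMYD transcript, 1 point per mouse, in the Inactive (grey circles), Active (dark diamonds) and Activity Reduction (red squares) groups, with the mean and SD of 7 mice as black bars and each axis starting at 0. The Activity Reduction mice stand above all Inactive mice for Smyd2, with normalized counts from 9719 to 13240.5 against 7775 to 9289.7, and the groups overlap for the other 4 members.

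The values of Smyd2 are given here by liver transcripts. Among the 13 libraries with fewer, the 5 Activity Reduction mice ran from 9719 to 13240.5 and the 6 Inactive mice from 7775 to 9289.7, and the 2 Active mice were at 9203 and 9451. Among the 8 libraries with more, the 2 Activity Reduction mice were at 10959 and 11069.8, the single Inactive mouse was at 7898 and the 5 Active mice ran from 7868 to 10861. With the division as a covariate the log2 difference between the Activity Reduction and Inactive groups was 0.45, and in the 13 libraries alone it was 0.44. With group means removed, the correlation of Smyd2 with the mean of the liver markers was r = -0.07 and that with the total count was r = 0.02, over 21 libraries and given as descriptions. Of the marker lists of other cell types, those of satellite cells, the stem cells of muscle, and of Schwann cells, the glia of its nerves, had their highest median in the Activity Reduction group, as Smyd2 did. The medians of the summed satellite cell markers were 17.4, 15.97 and 19.4 CPM in the Inactive, Active and Activity Reduction groups, and those of the Schwann cell markers were 56.4, 63.9 and 68.8 CPM. Their ranges overlapped between the groups (15.0 to 20.4 CPM in the Activity Reduction against 15.4 to 22.6 CPM in the Inactive group for satellite cells, and 56.0 to 86.0 against 51.0 to 163 CPM for Schwann cells), and their part in the level of Smyd2 was not tested. Other lists had their lowest median in the Activity Reduction group, with 236, 254 and 198 CPM for fibroblasts, 18.7, 25.6 and 18.6 CPM for macrophages and 179, 196 and 169 CPM for endothelial cells in the Inactive, Active and Activity Reduction groups.

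By the thresholds used for calls (adjusted p-value under 0.05 and log2 fold change over 0.25 in either direction, in edgeR), 2 of 16129 genes (0.0124%) passed between the Activity Reduction and Inactive groups, both with the Activity Reduction group higher, while 7.73% of genes had an unadjusted p-value under 0.05. Smyd2 and Kcnj11 were these genes, and 1 of the 5 SMYD genes was thus called, in the contrast by which the family was chosen. The call did not hold when DESeq2's size factors replaced TMM, when only the 2 groups were fitted or in the 13 libraries alone. Between the Activity Reduction and Active groups, edgeR called 0 genes (0%), so none of the 5 members, while 13.3% of genes had an unadjusted p-value under 0.05 and 0.291% did not overlap. DESeq2 called Smyd2 in that comparison, among 117 genes (0.408%), and called Smyd2 among 23 genes (0.0802%) between the Activity Reduction and Inactive groups. Between the Active and Inactive groups edgeR called 0 genes (0%), with 10.9% at an unadjusted p-value under 0.05 and 0.254% not overlapping, and DESeq2 called 57 (0.199%) that did not include a SMYD gene. The DESeq2 shares are over the 28675 genes it tested, while those of edgeR are over 16129. Of the 28675, 19566 had no adjusted p-value between the Activity Reduction and Inactive groups and 15218 in each of the other comparisons. Such genes could not be called, so the shares of the 2 methods are not on 1 base.

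The estimated spread between mice of a group was larger for Smyd2 than for most genes of its level. Its biological coefficient of variation, the spread beyond counting error as edgeR estimates it and moderates it towards genes of like level, was 10.1%, higher than that of 85.7% of the 481 genes within 0.5 log2 CPM of it, whose median was 6.78%. The coefficient of Smyd1 was 6.61%, close to the median of 6.93% over the 88 genes near its level. The spread of Smyd2 was 584 in Inactive, 1036 in Active and 1363 in Activity Reduction mice (SD of normalized counts), and whether these SDs differ was not tested.

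The proportion of Smyd1 to Smyd2 followed these values. Of the summed RPKM of the 5 members, with the length of the canonical transcript, Smyd2 made up 27.4% ± 1.67 in Inactive, 29.0% ± 2.84 in Active and 33.9% ± 2.04 in Activity Reduction mice (SD, n = 7 each). The share of Smyd1 was 71.0% ± 1.69, 69.4% ± 2.80 and 64.7% ± 2.00 in the same order. Every Activity Reduction mouse had a larger Smyd2 share (30.5% to 36.3%) than every Inactive mouse (25.3% to 30.2%), with almost no gap between the groups. With the length of all annotated exons, the shares of Smyd2 were lower, at 16.3% ± 1.15, 17.4% ± 2.01 and 20.9% ± 1.49, in the same order of groups. The other 3 members together were a small rest, with each below 1% of the sum in every mouse by either length. A share falls where another rises, so these values restate the counts above.

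**Figure D3:**
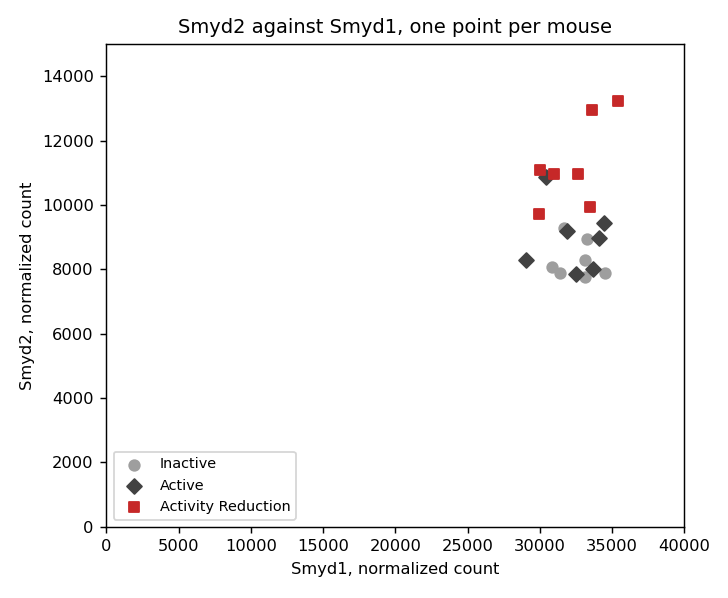
Normalized count of Smyd2 against that of Smyd1, 1 point per mouse, with Inactive mice as grey circles, Active mice as dark diamonds and Activity Reduction mice as red squares, and both axes starting at 0. The groups share their range of Smyd1, while the Activity Reduction mice lie between 9719 and 13240.5 for Smyd2.

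Smyd3, a histone methyltransferase that also acts on a kinase of the MAP kinase pathway, was low and did not differ beyond its spread. Its normalized counts had a lowest value of 369, a median of 408 and a highest value of 440.3 in Inactive, 311.2, 396 and 447 in Active and 341, 365 and 432 in Activity Reduction mice. The group means were 403 ± 29.0, 394 ± 42.2 and 383 ± 35.5 (SD, n = 7 each). The groups overlapped widely, although 4 Activity Reduction mice were below every Inactive mouse. The fold change between the Activity Reduction and Inactive groups was 0.954, with a 95% interval of 0.858 to 1.06, so a fall of up to about this size is within the interval.

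Smyd4 was the least counted of the 5, with between 191 and 338 raw counts per library. Its normalized counts had a lowest value of 224, a median of 277 and a highest value of 296 in Inactive, 221, 253 and 319.3 in Active and 225, 249 and 267 in Activity Reduction mice. The highest Activity Reduction mouse was below 5 of the 7 Inactive mice, and the lowest mice of the 3 groups were close together. The means were 267 ± 28.1, 264 ± 30.5 and 249 ± 14.4 (SD, n = 7 each), and the fold change between the Activity Reduction and Inactive groups was 0.936, with a 95% interval of 0.835 to 1.05. Over all mice the SD of Smyd4 was 9.73% of its mean, where counting error alone gives 6.17%, so counting error is a large part of its spread.

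Smyd5, which acts on histones, had a lowest normalized count of 402, a median of 414 and a highest value of 510.2 in Inactive, 388, 449 and 480.2 in Active and 394, 441 and 512 in Activity Reduction mice. Its 3 groups covered nearly the same range, and the means were 438 ± 40.9, 448 ± 31.4 and 449.9 ± 42.3 (SD, n = 7 each). The fold change between the Activity Reduction and Inactive groups was 1.03, with a 95% interval of 0.932 to 1.14. Between the Activity Reduction and Active groups, the log2 differences of Smyd3, Smyd4 and Smyd5 were -0.04, -0.08 and 0.00, and between the Active and Inactive groups they were -0.03, -0.01 and 0.04. The adjusted p-values of Smyd1, Smyd3, Smyd4 and Smyd5 lay between 0.678 and 0.993 in the 3 comparisons (quasi-likelihood test of edgeR, Benjamini-Hochberg adjusted over all genes), which does not show that the levels were equal. Over all of these intervals the lowest bound was 0.835-fold, for Smyd4, and the highest was 1.14-fold, for Smyd5, both between the Activity Reduction and Inactive groups.

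**Figure D4:**
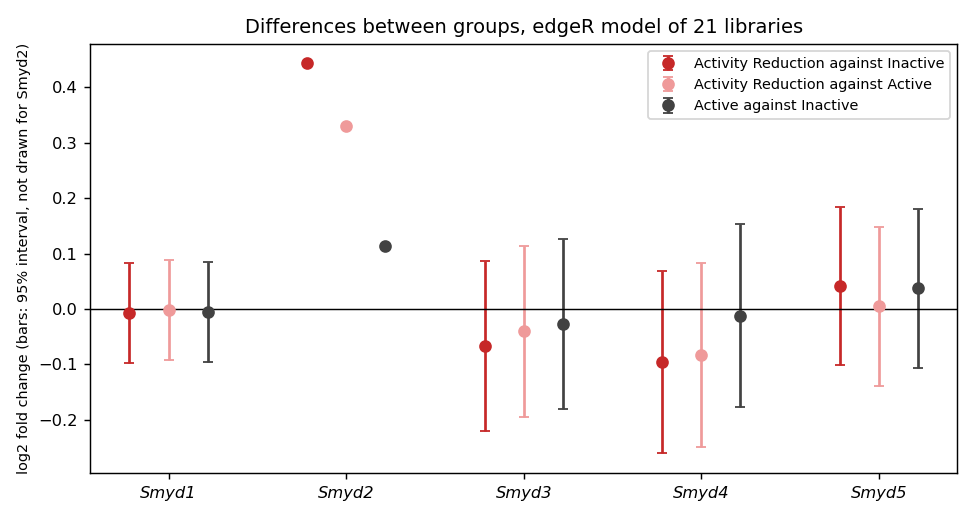
Fitted log2 fold change of each SMYD transcript in the 3 comparisons between groups, with 95% intervals as bars for Smyd1, Smyd3, Smyd4 and Smyd5, from 1 edgeR model of the 21 libraries. These intervals include 0 in every comparison, and Smyd2, which was chosen for its differences and has no interval drawn, is at 0.44, 0.33 and 0.11.

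Whether the members rose and fell together from mouse to mouse was tested on log2(CPM + 1) with the group means removed, by permutation of mice within groups (100000 permutations, two-sided). None of the 10 pairs of members passed after Benjamini-Hochberg adjustment over the 10. Smyd1 and Smyd5 had the highest correlation, with Pearson r = 0.55 (permutation p = 0.0123, adjusted p = 0.123) and Spearman rho = 0.51 (permutation p = 0.0255, adjusted p = 0.255), and r was 0.59 without the 2 libraries farthest from the median of Smyd1. Smyd1 and Smyd2, the 2 abundant members, had r = 0.08 (permutation p = 0.741, adjusted p = 0.906) and rho = 0.12 (permutation p = 0.614, adjusted p = 0.768). Without the 2 farthest libraries this r was -0.14, so no relation between Smyd1 and Smyd2 was detectable. The other pairs with Smyd2 had r = -0.04 (Smyd3), 0.28 (Smyd4) and 0.03 (Smyd5), with adjusted p-values by permutation of 0.688 or more.

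The same test was run for the 5 members with 9 genes of their setting in muscle, which were Hsp90aa1 and Hsp90ab1 (the Hsp90 chaperones), Unc45b (the Hsp90 co-chaperone of myosin), Naca (the source of the muscle partner of Smyd1), Ttn (titin) and the myosin heavy chains Myh7, Myh2, Myh1 and Myh4. Of these 45 pairs, 1 passed, that of Smyd3 with Unc45b. Mice with more Smyd3 than their group's mean had less Unc45b, with Pearson r = -0.72 (permutation p = 0.00029, adjusted p = 0.013) and Spearman rho = -0.79 (permutation p = 0.00021, adjusted p = 0.00945). Within the groups r was -0.80 (Inactive), -0.41 (Active) and -0.96 (Activity Reduction), each over 7 mice. Without the 2 libraries farthest from the median of Smyd3, r was -0.74 (permutation p = 0.00149, adjusted p = 0.067). With the liver division removed as well, r was -0.75 (permutation p = 0.00037, adjusted p = 0.0166). With counts normalized by size factors in place of CPM, r was -0.53 and the pair did not pass (permutation p = 0.0122, adjusted p = 0.361), so the relation depends on the scale. With group means removed, Smyd3 on the CPM scale also had r = -0.38 with the total count of the library, and the part of the total count in the relation was not tested.

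The strongest correlations of Smyd2 were negative and were with 3 of these genes, and none passed the adjustment over the 45 pairs. They were Hsp90aa1, the stress-inducible Hsp90 and a substrate of Smyd2 (r = -0.53, permutation p = 0.0225, adjusted p = 0.254, rho = -0.51, permutation p = 0.0267, adjusted p = 0.301), Naca (r = -0.58, permutation p = 0.00934, adjusted p = 0.14, rho = -0.53, permutation p = 0.017, adjusted p = 0.255) and Myh7, the slow myosin (r = -0.65, permutation p = 0.00777, adjusted p = 0.14, rho = -0.44, permutation p = 0.0672, adjusted p = 0.432). Without the 2 libraries farthest from the median of Smyd2, r was -0.53 for Hsp90aa1, -0.49 for Naca and -0.32 for Myh7, so that of Myh7 rests on those libraries. With Ttn, the sarcomeric partner of Smyd2, r was 0.04 (permutation p = 0.875, adjusted p = 0.987). The groups went in different directions there, with r = -0.70 in Inactive, -0.03 in Active and 0.58 in Activity Reduction mice, and for Myh7 r was 0.29, -0.80 and -0.73 in the same order, each over 7 mice. Whether the groups differ in these correlations was not tested.

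The partners and substrates of the family were also compared between groups. Of 16 listed genes, 0 were called in any of the 3 comparisons by edgeR or by DESeq2, where edgeR called 0.0124%, 0% and 0% of all genes, and 1, 2 and 3 of the 16 had an unadjusted p-value under 0.05 between the Activity Reduction and Inactive, the Activity Reduction and Active, and the Active and Inactive groups. Among all genes, 7.73%, 13.3% and 10.9% had an unadjusted p-value under 0.05. The median log2 differences of the 16 were -0.01, 0.01 and -0.01, where all genes had 0.01, 0.00 and 0.01. Hsp90ab1, the constitutive Hsp90 and a substrate of Smyd2, was at 60988 ± 2345 in Inactive, 52359 ± 3207 in Active and 57165 ± 3416 in Activity Reduction mice (normalized count, SD, n = 7 each). It was the only gene of the 16 whose groups did not overlap, with every Active mouse below every Inactive mouse, where 0.254% of all genes did not overlap, and its log2 difference there was -0.21 (adjusted p = 0.159, quasi-likelihood test of edgeR, Benjamini-Hochberg adjusted), which did not pass. Of the libraries compared there, 5 of 7 Active and 1 of 7 Inactive held more liver transcripts, and the part of this in the level of Hsp90ab1 was not tested. Its order of groups was not that of Smyd2, since the Activity Reduction group lay between the others for Hsp90ab1.

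The other partners with the smallest unadjusted p-values did not pass either. Unc45b had a log2 difference of -0.14 between the Active and Inactive groups (adjusted p = 0.344). Hdac3, which encodes a deacetylase that binds SMYD proteins in repressor complexes, had 0.14 between the Activity Reduction and Active groups (adjusted p = 0.161), and Hsp90ab1 had 0.12 (adjusted p = 0.211). In the comparison of the Activity Reduction with the Inactive group, Hsp90ab1 had -0.09 (adjusted p = 0.657).

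Enzymes outside the family that also place or remove methyl groups on lysine were listed for comparison. Of 29 other SET-domain methyltransferases, 28 passed the filter on low counts, and 0 were called in any comparison by edgeR or DESeq2, with 1, 2 and 2 at an unadjusted p-value under 0.05 in the order of comparisons given above. Over all genes, edgeR called 0.0124%, 0% and 0%, and 7.73%, 13.3% and 10.9% had an unadjusted p-value under 0.05. The largest difference among the 28 between the Activity Reduction and Inactive groups was that of Kmt5a, which places a single methyl group on histone H4, at 0.30 (adjusted p = 0.640), and Kmt2c had -0.09 (adjusted p = 0.715). Setd7, which methylates histone H3 and other proteins, had -0.24 between the Active and Inactive groups (adjusted p = 0.223) and 0.14 between the Activity Reduction and Active groups (adjusted p = 0.347). Ehmt2, a methyltransferase of histone H3, had -0.11 (adjusted p = 0.333) and 0.09 (adjusted p = 0.318) in the same comparisons.

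Of 15 lysine methyltransferases without a SET domain, 13 were tested and 0 were called by edgeR or DESeq2, with 0, 0 and 2 at an unadjusted p-value under 0.05. For all genes the shares were 0.0124%, 0% and 0% called by edgeR, and 7.73%, 13.3% and 10.9% under 0.05. Mettl21c, a muscle-enriched enzyme, had a log2 difference of 0.19 between the Active and Inactive groups (adjusted p = 0.383) and -0.12 between the Activity Reduction and Active groups (adjusted p = 0.533). Eef1akmt1, which methylates the elongation factor eEF1A, had -0.20 (adjusted p = 0.383) and 0.10 (adjusted p = 0.601). Eef1akmt4 had 0.27 and Eef1aknmt had 0.11 between the Activity Reduction and Inactive groups (adjusted p = 0.715 and 0.766).

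Of 19 lysine demethylases, 18 were tested and 0 were called by edgeR or DESeq2, with 2, 1 and 0 at an unadjusted p-value under 0.05. All genes had 0.0124%, 0% and 0% called by edgeR, and 7.73%, 13.3% and 10.9% under 0.05. Among the 18, Kdm6b, a demethylase of histone H3, had the largest difference, 0.19 between the Activity Reduction and Active groups (adjusted p = 0.183), where Kdm4b had 0.10 (adjusted p = 0.416). Kdm4c had -0.13 and Kdm1b had -0.12 between the Activity Reduction and Inactive groups (adjusted p = 0.523 and 0.637). Kdm3a had 0.13 and Kdm4c had -0.08 between the Active and Inactive groups (adjusted p = 0.476 and 0.569).

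The last list held 12 genes that make, use up or regenerate S-adenosylmethionine, the methyl donor of the SMYD enzymes. All 12 were tested and 0 were called by edgeR or DESeq2, with 2, 2 and 1 at an unadjusted p-value under 0.05. The shares over all genes were 0.0124%, 0% and 0% called by edgeR, and 7.73%, 13.3% and 10.9% under 0.05. Mtrr, the reductase that keeps methionine synthase active, had a log2 difference of -0.15 between the Activity Reduction and Inactive groups (adjusted p = 0.366) and -0.14 between the Active and Inactive groups (adjusted p = 0.291). Mat2a, which makes S-adenosylmethionine, had 0.13 and Ahcyl2 had -0.13 between the Activity Reduction and Active groups (adjusted p = 0.365 and 0.245). Mtap had -0.14 between the Activity Reduction and Inactive groups (adjusted p = 0.644), and Slc25a26, the mitochondrial carrier of S-adenosylmethionine, had -0.09 between the Active and Inactive groups (adjusted p = 0.487). The medians of the 5 lists in the 3 comparisons lay between -0.05 and 0.04 on the log2 scale. Between the Activity Reduction and Inactive groups the genes of the 5 lists ran from -0.22 to 0.30, with Smyd2 at 0.44. They ran from -0.47 to 0.19 between the Activity Reduction and Active groups (Smyd2 at 0.33). Between the Active and Inactive groups they ran from -0.24 to 0.40, and Smyd2, at 0.11, lay within them. The ends at -0.47 and 0.40 belonged to the S-adenosylmethionine list, whose named genes were picked by p-value and not by size.

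**Figure D5:**
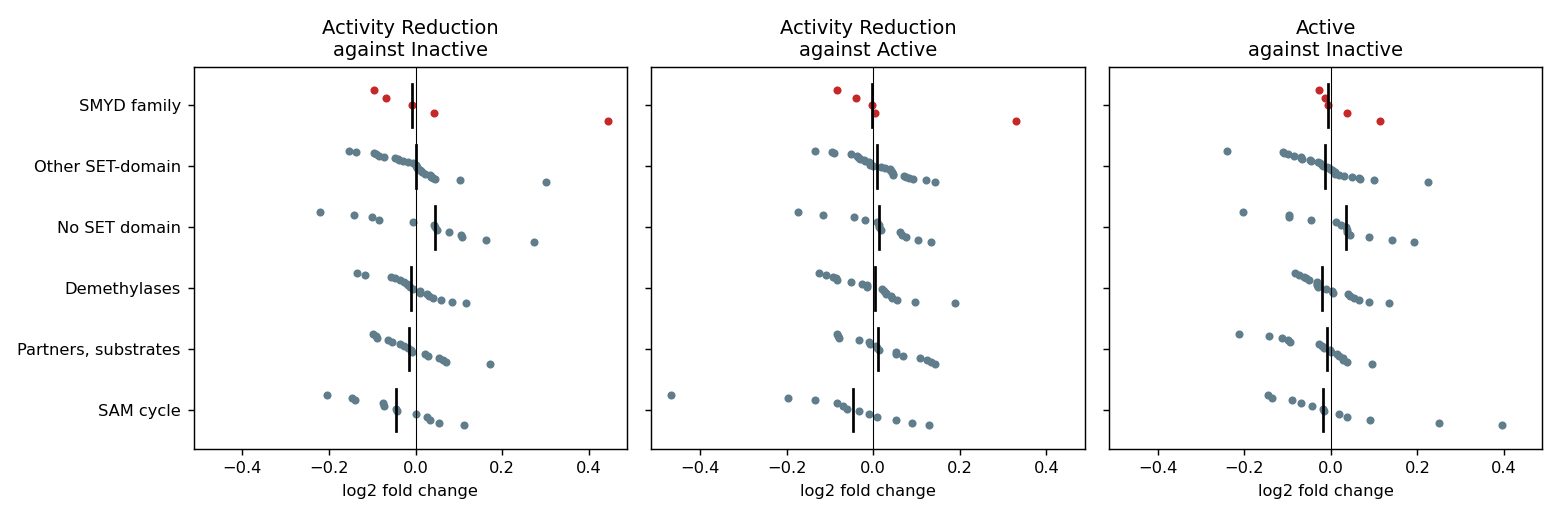
Log2 fold change of every tested gene of the SMYD family (red) and of 5 lists (grey: other SET-domain methyltransferases, lysine methyltransferases without a SET domain, lysine demethylases, partners and substrates, and genes of the S-adenosylmethionine cycle) in the 3 comparisons, with black lines at the medians. Smyd2 is the red point at 0.44, 0.33 and 0.11, and the medians of all lists lie close to 0.

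The genes whose levels were most like those of Smyd2 over the 21 libraries were named by Pearson's r of log2 values, as a description. They were Sh2d6 (r = 0.84), Hoxa13 (0.83), the noncoding Junos (0.81) and Hoxa11os (0.81), and Kcnj11 (0.81), which encodes a subunit of the ATP-sensitive potassium channel. With the group means removed, r was 0.74, 0.66, 0.71, 0.70 and 0.52, so the likeness of Kcnj11 to Smyd2 lay in the group means more than in the mice of a group. The mean normalized count of Kcnj11 was 8245 ± 445, 8718 ± 462 and 9834 ± 588 in the Inactive, Active and Activity Reduction groups (SD, n = 7 each). That of Hoxa13 was 46.8 ± 8.33, 55.8 ± 31.7 and 105 ± 39.3, and that of Sh2d6 was 71.0 ± 11.8, 113 ± 53.9 and 150.04 ± 47.4, in the same order. Hoxa13 and Hoxa11os belong to the HOXA cluster of developmental regulators.

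The genes most like Smyd1 were others. They were Mir1a-1hg, the host transcript of the muscle microRNA miR-1a (r = 0.85), Dmpk, the myotonic dystrophy protein kinase (0.84), Rgmb (0.76), Pgpep1 (0.76) and Ank1, an ankyrin of the muscle membrane system (0.76). With the group means removed, r was 0.92, 0.83, 0.80, 0.75 and 0.76, so these likenesses lay between mice of the same group. None of the 5 genes most like Smyd1 was among the 5 most like Smyd2. Nothing is read from this, since each list holds only 5 of the 16129 genes.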

How the data were processed

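Poly(A) RNA of the gastrocnemius was sequenced from 21 mice, and per the labels the authors used fastp for trimming, STAR with GRCm39 for alignment and featureCounts for counting (versions and strand setting are not given in the sources used here). The deposited values are whole-number counts per gene without normalization, and all 857913 values of another deposited table, which its name calls normalized, were identical to them, so it was not used further. From the counts, CPM, RPKM and normalized counts (DESeq2 size factors over 21 libraries) were computed. Groups came from the treatment labels. Differences were tested with edgeR 4.0.16 (quasi-likelihood, TMM, 21 libraries in 1 model, 16129 genes left by its filter on low counts), and DESeq2 1.42.0 was an alternative, as were other normalization, filters, samples, the liver division as a covariate and the replicate number as a block. Adjusted p-values of edgeR cover all genes it tested. Those of DESeq2 cover only part of its 28675 genes, since 19566 or 15218 had none in a comparison. Correlations used log2(CPM + 1) with 100000 permutations within groups, which can give a p of 1e-05 at the smallest. The tests were tried on simulated data.

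The members and lists were chosen with earlier results of these data known. The genes named are all 5 members, the genes with the 2 smallest unadjusted p-values of each list in each comparison where none was called, and the 5 genes most like Smyd1 and the 5 most like Smyd2, and 1 gene named by this rule is not reported here. Positions come from GENCODE on GRCm39, and promoters from RefSeq on GRCm38.p6, where 4 of the 5 members had an entry. In a search of all transcripts for stretches of at least 100 bp at 90% identity or more, Smyd1 matched none, and outside the overlapping genes Smyd3 and Smyd4 matched short stretches only (at most 1.39% and 5.15% of the transcript). The total count per library, between 38482455 and 59785132, gave counting errors of 0.554% of the mean for Smyd1, 1.02% for Smyd2, 5.02% for Smyd3, 6.17% for Smyd4 and 4.72% for Smyd5, which cover counting only. No 2 libraries agreed within sampling noise. The labels do not show that replicate numbers pair the mice, and the main model did not use them. With group means removed, 3 to 4 of 7 same-numbered pairs had a correlation over 0.1. The most similar mouse bore the same number for 2, 1 and 2 of 7 mice in the 3 comparisons. Replicate 1 was among these each time (r = 0.65, 0.50 and 0.60). In every group, replicate 1 was in the set with more liver transcripts, and the part of this in the likeness was not tested. The normalized counts of the 5 members were screened in each group for a mouse far from the rest with Dixon's test, and 0 of 15 groups held one (largest gap 0.545 of the range, critical value 0.568).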

Additional observations from a re-analysis of the deposited data

How the results depend on the processing

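With 7 alternatives for each comparison, the log2 difference of Smyd2 between the Activity Reduction and Inactive groups lay between 0.43 and 0.45, and that between the Active and Inactive groups between 0.11 and 0.16. The number of SMYD genes called between the Activity Reduction and Inactive groups was 1, and it fell to 0 with DESeq2 size factors in edgeR, with only the 2 groups compared and with the 13 libraries with fewer liver transcripts. Between the Activity Reduction and Active groups it was 0 and became 1 with DESeq2, and the log2 difference of Smyd2 there ran from 0.28 to 0.33. With the replicate number as a block, which the labels do not show to pair mice, the counts of SMYD genes called were 1, 0 and 0, as without the replicate block, and the counts over all genes were 4, 0 and 0 in place of 2, 0 and 0. Over all genes edgeR called 2, 0 and 0 and DESeq2 called 23, 117 and 57 in the order of comparisons of the report, and the other alternatives called 0 to 4. The 5 lists had 0 called genes in all 105 alternatives run.

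Small differences of members that were not called turned sign. In the 13 libraries, Smyd1 was at 0.033 between the Activity Reduction and Inactive groups and at 0.044 between the Active and Inactive groups, Smyd3 was at 0.012 and Smyd5 at -0.0096 between the Activity Reduction and Active groups, and Smyd4 was at 0.069 between the Active and Inactive groups. With the liver division as a covariate, Smyd1 was at 0.014 and Smyd4 at 0.061 between the Active and Inactive groups. Between the Activity Reduction and Active groups, Smyd1 was at 0.00018 with DESeq2 and at 0.00016 with its size factors in edgeR, and Smyd5 was at -0.0012 with only those groups fitted. The correlation of Smyd1 with Smyd2 was -0.14 without the 2 libraries farthest from the median. Of the pairs with partners and myosins, 1 passed, and 0 passed with counts normalized by size factors (Smyd3 with Unc45b at -0.53) or without the 2 farthest libraries (-0.74). The cause was not tested for any of these. The ratios of group means moved by less than 1 SD under TMM and in the 13 libraries. The Active group kept only 2 mice there, and the low counts of Smyd3, Smyd4 and Smyd5 limit what can be seen for them.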
